A study of Saccharomyces cerevisiae with 8 samples.

Results

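The transcriptome of budding yeast (Saccharomyces cerevisiae) cells without VTS1 was compared with that of naive wild-type cells. The comparison took the 2 libraries titled vts1∆ and the 2 titled naive, which are 4 of the 8 libraries of the study, and all 6713 reading frames quantified in them, of which 6230 had enough counts to be tested. All strains were of the BY4741 background, a haploid laboratory strain of mating type a, and were grown in 50 ml cultures to mid-exponential phase at an optical density (OD600) of about 0.6. The vts1 deletion strain lacks the VTS1 gene and had no overexpression treatment. Naive cells were wild type at VTS1 and had never overexpressed it. The other 4 libraries came from 2 inductants, wild-type cells in which VTS1 had been overexpressed from a plasmid for 48 h, after which the plasmid was lost and the cells were passaged. Each group had 2 biological replicates, so p-values measure the spread between cultures of a group; the labels do not say whether more than 1 deletion isolate was used, and any change in that strain other than at VTS1 cannot be told apart from the deletion. Total RNA was depleted of ribosomal RNA and sequenced.

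Vts1 is the yeast member of the Smaug family of RNA-binding proteins. Its SAM domain reads the shape of a short stem closed by a loop with a guanine at a fixed place, and the protein recruits the Ccr4-Not deadenylase, so that bound messengers lose their poly(A) tail and are decapped and degraded. Vts1 can also take up a self-propagating, prion-like state called [SMAUG+], which is what the transient overexpression in the inductants serves to induce. A strain without the gene has neither the RNA-binding protein nor the material for that state.

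Hairpins of the kind that Smaug proteins bind were searched for in the coding sequences, as the loop CNGG followed by up to 3 bases and closed by at least 5 Watson-Crick pairs. The sites below, read from the R64 genome with the RefSeq annotation, are those of YIR016W, a transcript known to be bound by Vts1, and of the 8 carriers with the largest rises in the deletion among called genes with groups that did not overlap, a mean of at least 10 CPM and a call in each of the 8 fits with 1 library left out. Capitals mark the 4 loop bases, and each sequence runs 5′ to 3′ as RNA.
YIR016W, chrIX:382843-382856, plus strand: uggcgCAGGcgcca
PCL1, chrXIV:88022-88036, plus strand: uucucCAGGagagaa
YOR338W, chrXV:957867-957882, plus strand: ccguuCAGGagaacgg
WSC4, chrVIII:50292-50305, plus strand: gacugCAGGcaguc
IRC23, chrXV:413462-413477, plus strand: uaucgCAGGaucgaua
RBH1, chrX:87434-87448, plus strand: ugacgCAGGacguca
CTR1, chrXVI:787191-787204, plus strand: cacuuCCGGaagug
OPY1, chrII:494853-494866, minus strand: cacuaCAGGuagug
PRP24, chrXIII:803218-803231, minus strand: uucuuCAGGaagaa

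VTS1 (YOR359W), on chromosome XV from 1011189 to 1012760, had 0 and 2 counts in the vts1 deletion libraries and 472 and 488 counts in the naive libraries. Scaled to depth, this is 0.225% of the naive level (exact 95% interval 0.0272% to 0.815%, counting error only). PDE2, which encodes the high-affinity cAMP phosphodiesterase and is the next annotated gene on one side (1013241 to 1014821, on the opposite strand), had 117 and 119 CPM (counts relative to the library's TMM-scaled total, the unit used for levels below) in the deletion and 58.5 and 66.0 CPM in naive cells. It rose by 0.92 ± 0.08 on the log2 scale (SE from the fit, adjusted p = 3.31e-05). HAP5, the neighbour on the other side and a subunit of the HAP transcription complex, had 10.1 and 12.1 CPM in the deletion and 11.3 and 10.5 CPM in naive cells, so the groups overlapped (0.02 ± 0.16, adjusted p = 0.934).

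YIR016W had 61.2 and 56.6 CPM in the deletion and 44.6 and 48.4 CPM in naive cells. Both deletion libraries were above both naive libraries, but the groups also did not overlap in 64.4% of all genes tested. The transcript rose by 0.34 ± 0.11 on the log2 scale (adjusted p = 0.0419). That call was lost without either deletion library, naive replicate 1 or either inductant 2 library. Against the 4 inductant libraries, which are also wild type at VTS1, the difference was 0.69 (adjusted p = 0.000272); the deletion libraries are shared by both comparisons.

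Library totals were 20242426 and 18431474 estimated counts in the deletion and 21564079 and 24860631 in naive cells, and the limit set by a count of 0, taken as 3 counts, lay between 0.109 and 0.163 CPM in the 8 libraries. On the first principal component of log2 CPM, with 39.9% of the variance, the deletion libraries stood at 27.42 and 26.08 and the other 6 between -15.87 and -0.07. The deletion replicates were closer to each other than the naive replicates: of 5057 genes with a mean of at least 10 CPM, 28 differed by 1.5-fold or more between the deletion replicates and 138 between the naive replicates. LEU2, URA3 and MET17, which this background lacks, were listed at 0 in all 8 libraries. The strain keeps part of HIS3, and that gene had 29.6 and 29.8 CPM in the deletion and 27.9 and 49.9 CPM in naive cells. The a-cell receptor gene STE2 had 247 and 244 CPM in the deletion and 197 and 196 CPM in naive cells. STE3, the receptor of the opposite mating type, had 4.87 to 5.29 CPM in these 4 libraries. Not all markers were so far apart. SAG1, a gene of that opposite type, had 22.6 and 20.4 CPM in the deletion and 18.61 and 18.64 CPM in naive cells. AGA2, a gene of a cells, was lower than SAG1, at 4.31 to 8.48 CPM.

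Of 6230 genes tested with edgeR's quasi-likelihood test and Benjamini-Hochberg adjustment, 1637 (26.3%) were called at an adjusted p under 0.05, 729 (11.7%) higher and 908 (14.6%) lower in the vts1 deletion. The split between directions moved with the scaling: 44.5% of calls were higher with TMM scaling, 54.5% with upper-quartile scaling, and 68.3% with limma on TPM. Most changes were small, with a median absolute log2 fold change of 0.45 among the called genes, and 523 genes (8.39%) were called with a change of at least 1.5-fold, 272 (4.37%) higher and 251 (4.03%) lower. All 1637 called genes had groups that did not overlap, as did 64.4% of all genes tested. The count rested on having both deletion libraries: 680 genes were called without replicate 1 of the deletion and 714 without replicate 2, and 566 genes were called in the full fit and in each of the 8 fits with 1 library left out. Against both inductants, the deletion differed in 2344 genes (37.6%), 1182 (19.0%) higher and 1162 (18.7%) lower. Shares of lower genes varied with level: 33.0% of genes in the highest sixth by mean CPM were called lower and 10.3% higher, while in the lowest sixth the shares were 4.72% and 4.91%.

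**Figure D1:**
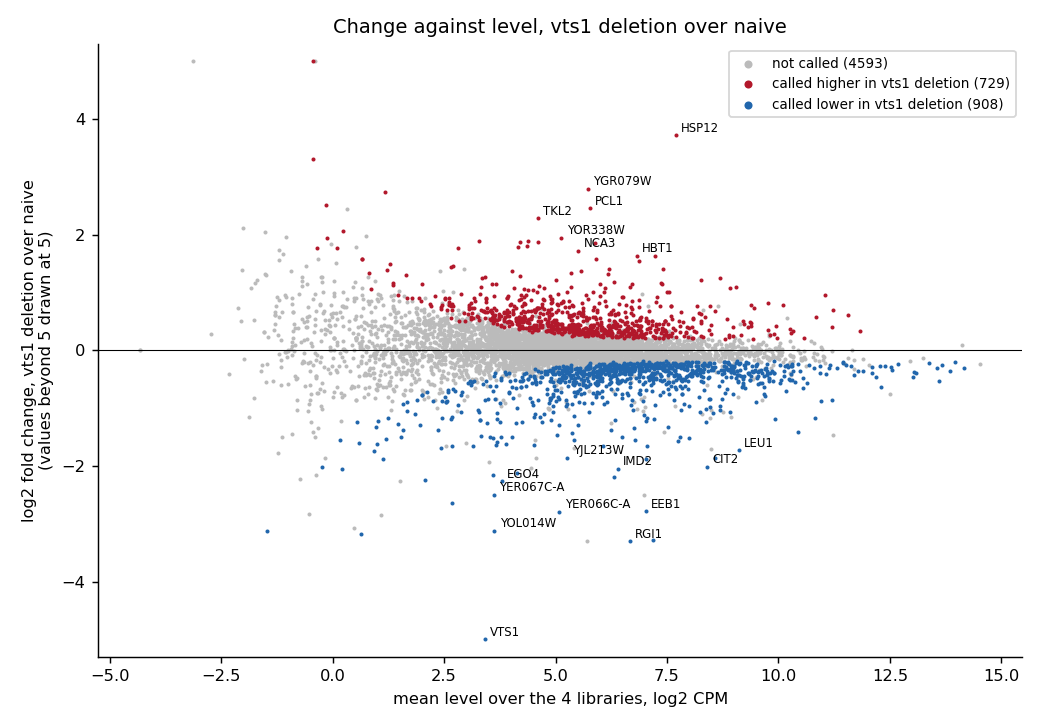
Log2 fold change of the vts1 deletion over naive (y axis) against the mean level over the 4 libraries in log2 CPM (x axis), 1 point per gene, coloured by call; some of the genes with the largest changes are labelled. HSP12 stands highest among the labelled genes at 3.72, and VTS1, which lies beyond the scale, is drawn at the lower edge.

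Among called genes with groups that did not overlap, a mean of at least 10 CPM and a call in each of the 8 fits with 1 library left out, the largest rise was that of HSP12, which encodes a small, membrane-associated stress protein. It had 392 and 377 CPM in the deletion, against 25.9 and 32.2 CPM in naive cells. That is a 13.2-fold difference, or 3.72 ± 0.14 on the log2 scale (adjusted p = 4.47e-07), and 3.89 against the inductants. YGR079W, a gene of unknown function, had 96.8 and 88.5 CPM in the deletion and 14.1 and 12.7 CPM in naive cells (2.79 ± 0.11, adjusted p = 1.91e-07). The 4 inductant libraries lay between the 2 groups for this gene, and the difference from them was 2.08. PCL1, a G1 cyclin of the Pho85 kinase and a carrier of one of the hairpins shown above, had 98.7 and 85.0 CPM in the deletion and 17.99 and 15.5 CPM in naive cells (2.46 ± 0.11, adjusted p = 4.02e-07).

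TKL2, the minor transketolase of the pentose phosphate pathway, rose by 2.29 and GND2, the minor 6-phosphogluconate dehydrogenase of that pathway, by 1.80. ALD3, a cytosolic aldehyde dehydrogenase, rose by 1.58, HSP26, a small chaperone, by 1.62, and HBT1, a protein of polarised cell growth, by 1.63. YOX1, which encodes a repressor of genes expressed around M/G1, had 33.1 and 33.0 CPM in the deletion and 9.43 and 8.42 CPM in naive cells (1.89 ± 0.13, adjusted p = 4.04e-06). RPS28B, which encodes the same small-subunit ribosomal protein as RPS28A, had 29.4 and 28.4 CPM in the deletion and 7.76 and 8.02 CPM in naive cells. It rose by 1.87 ± 0.17, while RPS28A differed by -0.11 and did not pass (adjusted p = 0.319). CWC2, a splicing factor, rose by 1.79, HLR1, a protein linked to cell wall composition, by 1.87, and NCA3, of the SUN family, by 1.73. The little-characterised ICS2 rose by 1.85 and YOR338W by 1.95. OCH1, the mannosyltransferase that starts the outer chains of N-linked glycans in the Golgi, was among the 5 rises with the smallest p-values, with 249 and 244 CPM in the deletion and 96.3 and 88.8 CPM in naive cells (1.41 ± 0.07, adjusted p = 4.47e-07).

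In the other direction, RGI1 had the largest fall after VTS1 itself among the genes that met the same conditions. RGI1, a gene of respiratory growth, had 15.4 and 21.9 CPM in the deletion, against 175 and 192 CPM in naive cells (-3.30 ± 0.19, adjusted p = 2.76e-05). The inductants lay between, and the deletion was lower than them by 1.56 on the log2 scale. YER066C-A and YER067C-A fell by 2.80 and 2.50; by their names these small frames lie beside RGI1 (YER067W), and reads of overlapping or antisense frames could not be separated. EEB1, an ester synthase, had 32.8 and 33.3 CPM in the deletion and 192 and 262 CPM in naive cells (-2.78 ± 0.15, adjusted p = 8.51e-06). The 4 inductant libraries had 179 to 279 CPM, a range that spans both naive values, and the deletion differed from them by -2.80.

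IMD2, inosine monophosphate dehydrogenase of guanine nucleotide synthesis, had 29.96 and 35.9 CPM in the deletion and 146 and 126 CPM in naive cells (-2.04 ± 0.10, adjusted p = 4.02e-07). It has close relatives that can share reads: IMD3 fell by 0.49 and IMD4 by 0.36, the IMD4 call being lost without either deletion library or naive replicate 1. CIT2, the peroxisomal citrate synthase, had 120 and 147 CPM in the deletion and 395 and 678 CPM in naive cells (-2.01 ± 0.28, adjusted p = 0.00755). YPK2, a kinase of the plasma membrane stress pathway, fell by 1.88, GSY1, a glycogen synthase, by 1.86, and LEU1, of leucine synthesis, by 1.73. EGO4 fell by 2.26, and the uncharacterised YOL014W by 3.12 and YJL213W by 1.86. YMR084W fell by 2.16 and its neighbour YMR085W fell by 2.13, with the YMR085W call lost when either deletion library was left out.

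**Figure D2:**
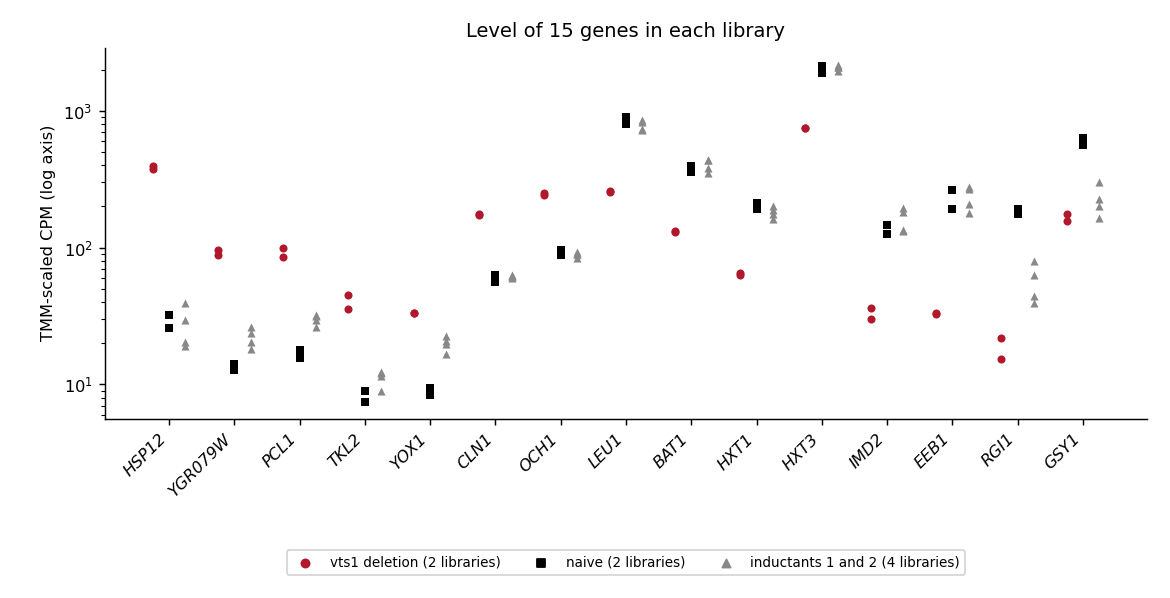
TMM-scaled CPM (log axis) of 15 genes in each library: vts1 deletion (circles), naive (squares) and, for comparison, the inductants (triangles). The deletion libraries lie above both naive libraries for the 7 genes on the left, HSP12 to OCH1, and below them for the 8 on the right, LEU1 to GSY1. For RGI1, YGR079W, PCL1 and YOX1 the inductants lie in between.

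Of 53 genes transcribed at the G1/S transition of the cell cycle, 24 rose, 2 fell and 27 did not pass in the deletion. At this point of the cycle the factors SBF and MBF switch on cyclins and the genes of DNA replication. The median log2 fold change of the list was 0.26, against 0.0 over all genes. Its shares were 45.3% higher and 3.77% lower, against 11.7% and 14.6% of all genes. Those shares over all genes also apply to the lists below. Without deletion replicate 1 the counts were 13 and 0, and without replicate 2 they were 17 and 0. Set against the inductants, 14 members of the list were higher and 8 lower (median 0.09), when 19.0% and 18.7% of all genes were higher and lower. In bulk RNA, more cells in a phase and more RNA per cell cannot be told apart.

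Among the cyclins, CLN1 had 173 and 175 CPM in the deletion and 56.3 and 63.2 CPM in naive cells (1.54 ± 0.07, adjusted p = 4.02e-07). CLN2 had 140 and 129 CPM in the deletion and 81.8 and 68.3 CPM in naive cells (0.85 ± 0.10, adjusted p = 0.000164). PCL2, another Pho85 cyclin, rose by 1.29 and the late G1 repressor gene NRM1 by 0.90. In each of these genes both deletion libraries exceeded both naive libraries, which holds for every gene called higher. SWI4, the DNA-binding subunit of SBF, stood at 0.45 ± 0.12 (adjusted p = 0.025, lost without either deletion library or naive replicate 1), while SWI6 (-0.04, adjusted p = 0.749) and MBP1 (-0.10, adjusted p = 0.322) did not pass. CLN3, the upstream G1 cyclin, differed by 0.17 (adjusted p = 0.193). WHI5, the inhibitor of SBF, had 13.6 and 14.4 CPM in the deletion and 19.9 and 20.1 CPM in naive cells and fell by 0.51, a call lost without either deletion library. FAR1, which arrests cells in G1 during mating, rose by 1.15 ± 0.09 (adjusted p = 1.26e-05). Replication genes moved less, with RNR1, the large subunit of ribonucleotide reductase, at 0.47 ± 0.08 (adjusted p = 0.00139) and POL1, DNA polymerase alpha, at 0.24. The MBF letters ACGCGT stood within 500 bases upstream of 13 of the 24 higher genes and 17 of the 27 uncalled genes (5.44% of 5993 such windows), and the SBF letters CNCGAAA in 16 and 10 of them (22.0% of windows), on either strand.

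Stress genes moved both ways. The general stress list holds genes that many stresses induce through Msn2 and Msn4 and that growth signalling through cAMP and protein kinase A holds down. Of 97 members, 34 rose and 22 fell, with a median of 0.20. Against the inductants 57 were higher and 6 lower (median 0.41). HSP12, TKL2, GND2, ALD3, HSP26 and HBT1 belong to it among the rises, as do YGP1, a secreted glycoprotein (1.26 ± 0.14, adjusted p = 0.000445), and GPP2, a glycerol phosphatase (0.93 ± 0.09, adjusted p = 6.09e-05). Among the falls were RGI1, EGO4, GSY1, TMA10, a ribosome-associated protein (-1.42 ± 0.17, adjusted p = 0.000365), and the small chaperone HSP42 (-0.95 ± 0.13, adjusted p = 0.00116). HSP104, the disaggregase that yeast prions depend on, had 992 and 1051 CPM in the deletion and 1003 and 1088 CPM in naive cells, which overlapped (-0.03, adjusted p = 0.822). The stress element AGGGG was found within 500 bases upstream of 31 of the 34 higher members, 19 of the 22 lower ones and 36 of the 41 uncalled ones, against 34.1% of all windows. Without deletion replicate 1 the list had 24 higher and 15 lower, and without replicate 2 it had 25 and 18.

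Of 42 genes of heat shock factor and chaperones, 15 rose, 4 fell and 23 did not pass (median 0.10). SSA4, a stress-induced Hsp70, had 109 and 105 CPM in the deletion and 41.3 and 39.0 CPM in naive cells (1.41 ± 0.08, adjusted p = 1.14e-06). SSA1, a constitutive Hsp70, had 2748 and 2841 CPM in the deletion and 1553 and 1314 CPM in naive cells (0.96 ± 0.08, adjusted p = 1.95e-05), and HSP82, the inducible Hsp90, rose by 1.10. The Hsp70 genes resemble each other and can share reads. HSP30, a plasma membrane stress protein, had 53.0 and 58.3 CPM in the deletion and 176 and 151 CPM in naive cells and fell by 1.56 ± 0.09 (adjusted p = 1.33e-06). HSF1 itself differed by -0.02 (adjusted p = 0.883).

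Of 25 genes of glycogen and trehalose, 12 fell and 4 rose (median -0.23). GSY1 had 155 and 175 CPM in the deletion and 562 and 635 CPM in naive cells (-1.86 ± 0.16, adjusted p = 0.000188). GLG1, which primes glycogen, fell by 1.07, GLC3, the branching enzyme, by 1.06, PGM2, phosphoglucomutase, by 0.98, and TPS2, of trehalose synthesis, by 0.89. Against the inductants the same list had 9 genes higher and 2 lower (median 0.20). GLG1 stood at 0.03 against them, GLC3 at 0.16 and PGM2 at 0.21 (adjusted p = 0.851, 0.356 and 0.144). Without deletion replicates 1 and 2 the list had 11 and 10 genes lower against naive, and 1 and 2 higher.

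Several transporters that bring glucose into the cell fell, among them HXT1 and HXT3. Yeast has many hexose transporters that differ in affinity and in the glucose level that switches them on, under the sensors Snf3 and Rgt2 and the repressor Rgt1 with its partners Mth1 and Std1. The list of hexose transport and glucose repression had 19 of its 47 tested genes lower, 0 higher and 28 that did not pass, with a median of -0.33. Against the inductants it had 10 lower and 6 higher (median -0.13). HXT1, a low-affinity transporter, had 65.3 and 63.6 CPM in the deletion and 212 and 192 CPM in naive cells (-1.65 ± 0.08, adjusted p = 4.02e-07). HXT3, also of low affinity, had 754 and 750 CPM in the deletion and 1898 and 2126 CPM in naive cells (-1.42 ± 0.07, adjusted p = 4.47e-07). The inductants had 161 to 202 CPM of HXT1 and 1959 to 2172 CPM of HXT3, and the deletion stood at -1.50 and -1.47 against them.

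HXT2 fell by 1.18 and HXT4 by 1.02, and these stood closer to the inductants, at -0.35 and -0.21. HXT6 fell by 3.28 ± 0.43 and HXT7 by 0.56 ± 0.08, but the pair is near-identical and shares reads, so the division between them is uncertain. HXK2, the main hexokinase and a regulator of glucose repression, had 1078 and 1155 CPM in the deletion and 2405 and 2599 CPM in naive cells (-1.16 ± 0.07, adjusted p = 1.49e-06). MIG3, a repressor, fell by 1.62 and SUC2, invertase, by 0.82. Among the regulators, MTH1 fell by 1.11, while RGT1 (0.02, adjusted p = 0.906), STD1 (-0.02, adjusted p = 0.87) and MIG1 (-0.09, adjusted p = 0.439) did not pass. The Rgt1 letters CGGANNA, common by themselves (42.0% of windows), were upstream of 13 of the 19 lower genes and 15 of the 27 uncalled genes with a window. Without deletion replicates 1 and 2 the list had 17 and 15 lower and 0 higher.

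Of 30 glycolysis and fermentation genes 16 fell and 2 rose (median -0.28). This is 53.3% lower, against 14.6% of all genes. In the highest sixth of genes by mean CPM, 33.0% were called lower and the median was -0.129. TDH2, a glyceraldehyde-3-phosphate dehydrogenase, fell by 0.87, ENO2, enolase, by 0.53, and ADH1, the main alcohol dehydrogenase, by 0.39. PDC1, pyruvate decarboxylase, differed by 0.10 (adjusted p = 0.448). GPD1, of glycerol synthesis under osmotic stress, rose by 0.51, and its relative GPD2 fell by 0.78. The glycolysis genes together took 11.2% and 11.3% of counts in the deletion and 12.3% and 12.2% in naive cells. With a deletion library left out, 10 of the list were called lower and 1 higher in either case.

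The respiratory chain is built from subunits encoded both in the nucleus and on mitochondrial DNA. Of 45 nuclear genes of oxidative phosphorylation, 32 rose and 1 fell, with a median of 0.40. The changes were modest, and with 1 deletion library fewer most missed the threshold: 11 were higher without replicate 1 and 10 without replicate 2. COX5A, a subunit of cytochrome c oxidase, had 83.2 and 76.4 CPM in the deletion and 41.9 and 48.4 CPM in naive cells (0.82 ± 0.10, adjusted p = 0.000267). CYC1, the main cytochrome c, had 20.3 and 19.0 CPM in the deletion and 11.1 and 9.93 CPM in naive cells (0.91 ± 0.14, adjusted p = 0.000923). CYC7, the minor cytochrome c, fell by 1.38, a call lost without naive replicate 2 or deletion replicate 2. INH1, an inhibitor of ATP synthase, rose by 0.96 and NDE2, an external NADH dehydrogenase, by 0.93.

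HAP4 encodes the regulated activator subunit of HAP, the complex that drives many of these genes, and it was lower. It had 192 and 205 CPM in the deletion and 447 and 491 CPM in naive cells (-1.24 ± 0.10, adjusted p = 1.46e-05), and differed from the inductants by -0.18 (adjusted p = 0.113). Of the 28 mitochondrially encoded rows 20 were tested, and 15 rose and 0 fell (median 0.57). COX1 had 1395 and 1403 CPM in the deletion and 728 and 892 CPM in naive cells (0.79 ± 0.09, adjusted p = 0.000154). COX2 rose by 0.74, COB, cytochrome b, by 0.78, and ATP6, a subunit of ATP synthase, had 84.3 and 98.3 CPM in the deletion and 45.03 and 46.1 CPM in naive cells. Mitochondrial rows took 1.14% and 1.19% of all counts in the deletion, 0.621% and 0.733% in naive cells and 0.634% to 0.707% in the inductants. Without deletion replicates 1 and 2 the numbers called higher were 12 and 11. Genes of the retrograde response, which rise when respiration fails, had 3 of 16 lower, CIT2 among them, and 0 higher, a share of 18.8% lower against 14.6% of all genes. Without naive replicate 1 the counts were 9 lower and 1 higher.

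**Figure D3:**
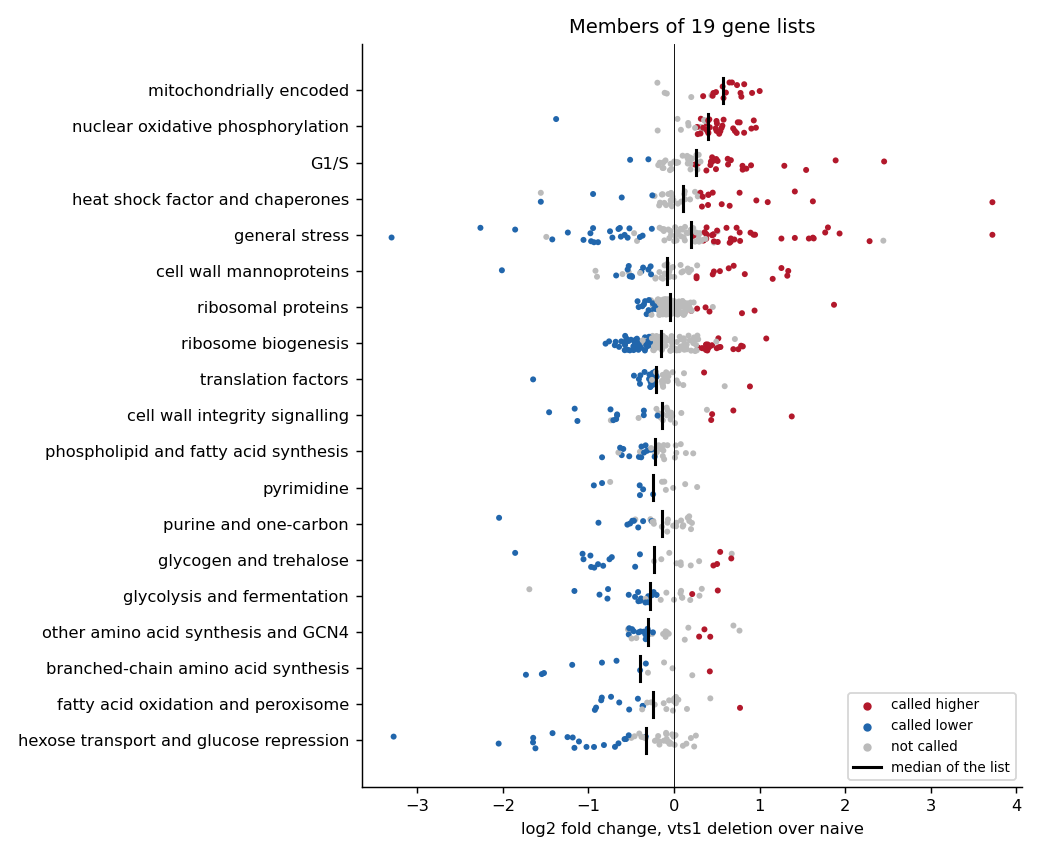
Log2 fold change of the vts1 deletion over naive (x axis) for the tested members of 19 gene lists (rows), 1 point per gene coloured by call, with the median of each list as a black bar. Mitochondrially encoded genes have the median farthest to the right (0.57), branched-chain amino acid synthesis the one farthest to the left (-0.40), and the general stress list spans -3.30 to 3.72.

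Several genes of leucine, isoleucine and valine synthesis fell. Of 13 genes on the list 8 fell and 1 rose, with a median of -0.40. LEU1, isopropylmalate isomerase, had 254 and 258 CPM in the deletion and 900 and 799 CPM in naive cells (-1.73 ± 0.07, adjusted p = 1.91e-07). BAT1, the mitochondrial branched-chain transaminase, had 130 and 132 CPM in the deletion and 358 and 393 CPM in naive cells (-1.52 ± 0.07, adjusted p = 4.02e-07). OAC1, a mitochondrial carrier that exports isopropylmalate, had 20.7 and 23.1 CPM in the deletion and 62.4 and 65.4 CPM in naive cells (-1.54 ± 0.09, adjusted p = 1.14e-06).

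LEU9, an isopropylmalate synthase, fell by 1.19 and ILV2, acetolactate synthase, by 0.84. ILV5, the reductoisomerase, was the exception and rose by 0.42 ± 0.08 (adjusted p = 0.0029). LEU1, BAT1, OAC1, LEU9 and ILV2 were also lower than in the inductants, by 1.62, 1.61, 1.84, 1.41 and 1.03 on the log2 scale. LEU3, the activator of these genes, had 53.6 and 52.0 CPM in the deletion and 52.1 and 54.7 CPM in naive cells, which overlapped (-0.02, adjusted p = 0.912). Without deletion replicates 1 and 2 the list had 6 and 5 lower and 1 higher.

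Leu3 binds CCG and CGG with 4 bases between them. A match on either strand stood within 500 bases upstream of 5 of the 8 lower genes, the 1 higher gene and 2 of the 4 uncalled genes, against 3.29% of all 5993 windows. Over all tested genes with such a window, 22.4% of the 183 carriers were called lower and 13.7% higher, against 850 and 666 of the 5542 genes without the motif (15.3% lower). The matches of the 5 lower genes and of ILV5 are shown in capitals within 20 bases on each side where the window allows, 5′ to 3′ on the strand of the gene.
LEU1, chrVII:478840-478889, minus strand: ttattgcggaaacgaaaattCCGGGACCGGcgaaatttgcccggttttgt
LEU1, chrVII:478810-478859, minus strand: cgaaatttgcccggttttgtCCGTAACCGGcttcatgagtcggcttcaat
BAT1, chrVIII:517365-517414, plus strand: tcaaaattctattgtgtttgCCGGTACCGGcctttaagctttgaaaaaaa
OAC1, chrXI:216844-216889, plus strand: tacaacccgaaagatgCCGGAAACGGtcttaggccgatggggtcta
LEU9, chrXV:522730-522779, plus strand: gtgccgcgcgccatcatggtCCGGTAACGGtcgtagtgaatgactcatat
ILV2, chrXIII:483596-483645, plus strand: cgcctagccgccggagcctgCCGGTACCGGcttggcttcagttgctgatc
ILV5, chrXII:839601-839650, minus strand: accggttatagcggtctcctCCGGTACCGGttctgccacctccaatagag

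Falls outnumbered rises in the lists of other amino acid, aromatic, pyrimidine, purine and lipid synthesis. Thiamine and pyridoxine synthesis had 3 of 23 higher and 1 lower, a share of higher genes close to the 11.7% of all genes. Its median was 0.08, and -0.02 and 0.15 without naive replicates 1 and 2, so no direction is read from this list. GCN4, the general activator of amino acid synthesis, fell by 0.47 ± 0.08 (adjusted p = 0.00133). Of 30 other genes of amino acid synthesis 14 fell and 3 rose (median -0.30), with GDH1, glutamate dehydrogenase, at -0.53. Of 16 aromatic genes 8 fell, ARO4 of the first step by 0.65, and 3 rose. Among those rises were the enzymes of aromatic amino acid breakdown ARO9 (1.17 ± 0.17, adjusted p = 0.00295) and ARO10 (1.21 ± 0.13, adjusted p = 0.000333). In pyrimidine synthesis 6 of 13 fell and 0 rose, the CTP synthases URA7 by 0.84 and URA8 by 0.94. In purine and one-carbon metabolism 9 of 29 fell and 0 rose, led by IMD2, but without naive replicate 1 the counts were 7 lower and 6 higher. In phospholipid and fatty acid synthesis 14 of 33 fell (42.4%) and 0 rose. In the highest sixth of all genes by mean CPM, 33.0% were called lower. The fatty acid synthase gene FAS2 had 3968 and 3991 CPM in the deletion and 5863 and 6453 CPM in naive cells (-0.63 ± 0.07, adjusted p = 0.000114). With limma on TPM the aromatic list had 3 lower and 3 higher, and other amino acid synthesis 7 lower and 5 higher. In the aromatic list falls no longer outnumbered rises when either deletion library was left out. The falls in these lists thinned out when a deletion library was left out. Without deletion replicate 1 there were 7 in other amino acid synthesis, 2 in the aromatic list, 4 in pyrimidine synthesis and 6 in the lipid list. Without deletion replicate 2 there were 6, 2, 4 and 5.

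The naive cultures differed from each other in arginine genes. ARG1, argininosuccinate synthetase, had 39.2 and 36.7 CPM in the deletion and 39.9 and 390 CPM in naive cells. Naive replicate 2 was far above naive replicate 1 and both deletion libraries. Of 16 genes on the arginine list 0 were called lower and 2 higher (median -0.55); 10 were called lower without naive replicate 1 (median -0.93) and 0 without naive replicate 2 (median 0.08).

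Of 42 translation factors 21 fell and 2 rose (median -0.21). This is 50.0% lower, against 33.0% in the highest sixth of all genes by mean CPM (median -0.129). TIF3, an initiation factor, stood at -0.47 ± 0.07 and the elongation factor TEF4 at -0.25. SUI1, an initiation factor that selects the start codon, rose by 0.89 ± 0.15 (adjusted p = 0.00242). Without deletion replicates 1 and 2 the factors had 4 and 5 lower, and limma on TPM called 7 lower. Of 135 ribosomal protein genes, many in near-identical pairs, 14 fell and 7 rose. Their median was -0.05, and 0.05 on the TPM scale. Set against the inductants, 50 of them were higher and 3 lower (median 0.14), when 19.0% and 18.7% of all genes were higher and lower. Among ribosome biogenesis genes 43 fell, 19 rose and 81 did not pass (median -0.15). Here the direction rested on naive replicate 1: without it 27 fell and 34 rose, while without naive replicate 2 the counts were 63 and 12. Leaving out deletion replicates 1 and 2 gave 18 and 15 lower and 6 and 10 higher. For the ribosomal protein genes the counts were 7 lower and 18 higher without naive replicate 1, and 35 and 4 without naive replicate 2. They were 3 and 4 lower, with 1 higher in either case, without deletion replicates 1 and 2. Of 36 genes of RNA polymerases I and III 7 rose (19.4%) and 6 fell (16.7%), with a median of 0.05. The largest subunits of RNA polymerase I, RPA190 and RPA135, fell by 0.70 and 0.75. RRN11 and RRN3, on the same list, rose by 0.88 and 0.72.

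Cell surface genes changed in both directions. Of 51 genes of cell wall mannoproteins and related enzymes 12 rose and 12 fell, which became 8 and 7 without either deletion library. CWP1, a wall mannoprotein, had 56.5 and 60.7 CPM in the deletion and 20.1 and 26.2 CPM in naive cells (1.34 ± 0.17, adjusted p = 0.000539), and stood 3.18 above the inductants on the log2 scale. TIP1, another mannoprotein, rose by 1.32. The chitinase CTS1 fell by 0.54. Of 32 genes of cell wall integrity signalling 11 fell and 4 rose. SLT2, the kinase of the pathway, had 82.5 and 82.2 CPM in the deletion and 172 and 197 CPM in naive cells (-1.16 ± 0.12, adjusted p = 0.000214). The sensor gene MTL1 fell by 1.46 and WSC4, a sensor gene that carries a predicted hairpin, rose by 1.38 ± 0.10 (adjusted p = 8.17e-06). Compared with the inductants, SLT2 stood at -0.15 (adjusted p = 0.315), MTL1 at -0.55 and WSC4 at 0.65.

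Membrane transport and lipid genes changed on both sides. Of 35 genes of drug and ion efflux 12 fell and 6 rose (median -0.15). TPO4, a polyamine transporter, had 105 and 114 CPM in the deletion and 281 and 366 CPM in naive cells (-1.56 ± 0.12, adjusted p = 3.56e-05). QDR2, a multidrug transporter, fell by 1.20, and AQR1, a transporter of the same superfamily, had 253 and 230 CPM in the deletion and 119 and 121 CPM in naive cells (1.01 ± 0.08, adjusted p = 1.4e-05). PMA1, the plasma membrane proton pump, had 6964 and 6927 CPM in the deletion and 9359 and 9820 CPM in naive cells, while its minor copy PMA2 had 31.5 and 28.9 CPM in the deletion and 14.8 and 14.7 CPM in naive cells. Of 36 ergosterol and sterol uptake genes 12 fell and 4 rose: the sterol gene activator ECM22 fell by 0.89 and ROX1, a repressor of hypoxic genes, rose by 0.86. Without deletion replicates 1 and 2 the sterol list had 5 and 6 lower. Of 26 genes of fatty acid oxidation and peroxisomes 10 fell and 1 rose, POX1, the acyl-CoA oxidase, by 0.91; 5 were lower without either deletion library.

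All 4 tested genes specific to a cells were called higher: STE2, BAR1, STE6 and AGA2, by 0.32, 0.38, 0.25 and 0.70. The calls of STE2, BAR1 and STE6 were lost when either deletion library was left out, and AGA2, at 8.48 and 6.06 CPM in the deletion and 4.67 and 4.31 CPM in naive cells, lost its call in all 8 fits with 1 library left out. MFA1 and MFA2, the a-factor genes, were listed at 0 in every library. Effective length was 179 bases below coding length in the longest frame, so very short frames may receive no counts. The zeros of MFA1 and MFA2 do not show that these genes were silent. Of 43 pheromone response genes 10 rose and 4 fell; 2 and 1 were higher without deletion replicates 1 and 2. AFR1, which shapes the mating projection, fell by 1.30, and against the inductants it stood at -0.13 (adjusted p = 0.436). Among 28 genes of cAMP and protein kinase A signalling 5 rose and 7 fell (2 lower without either deletion library): RGS2, which restrains the receptor-coupled G protein, rose by 1.21, and YAK1, a kinase that opposes protein kinase A, fell by 0.94. Compared with the inductants, YAK1 stood at -0.31 (adjusted p = 0.0749) and RGS2 at 1.11. The low-affinity phosphodiesterase gene PDE1 fell by 0.58, opposite to PDE2, a call lost without either deletion library.

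By position, no nuclear chromosome was shifted as a whole: medians per chromosome ran from -0.085 to 0.036. The 335 tested genes within 30 kb of a chromosome end had a median of -0.083, with 8.06% called higher and 18.5% lower, against 12.3% and 15.4% of 5399 other nuclear genes. The helicase genes of the Y′ elements at chromosome ends had 5 of 8 higher, by 0.51 to 0.76, but these copies are near-identical, several had the same values, and they count as few independent measurements. Of 74 reading frames of Ty retrotransposons 22 fell and 2 rose (median -0.34). Ty copies also share reads, and 8 and 4 were lower without deletion replicates 1 and 2, 6 without naive replicate 1. Ty frames took 10.4% and 10.2% of counts in the deletion and 12.2% and 10.9% in naive cells.

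Vts1 acts through the messenger decay machinery. Of 55 genes of deadenylation, decapping and decay, VTS1 counted among them, 10 fell and 3 rose, with a median of 0.01. The shares were 18.2% lower and 5.45% higher, against 14.6% and 11.7% of all genes. The Ccr4-Not deadenylase genes CCR4 (-0.16, adjusted p = 0.0921) and POP2 (-0.01, adjusted p = 0.959), the decapping activator DHH1 (-0.11, adjusted p = 0.261) and the exonuclease XRN1 (0.01, adjusted p = 0.92) did not pass. SKI6 and RRP42 encode core subunits of the exosome and went in opposite directions. SKI6 had 29.3 and 31.2 CPM in the deletion and 43.0 and 45.5 CPM in naive cells (-0.55 ± 0.09, adjusted p = 0.00161). RRP42 had 51.4 and 52.6 CPM in the deletion and 34.7 and 26.1 CPM in naive cells (0.78 ± 0.13, adjusted p = 0.0014). JSN1, an RNA-binding protein of the Puf family, fell by 0.51. Without either deletion library 3 genes of the list were called lower and 1 higher. Among 17 genes of yeast prion proteins 4 fell, VTS1 included, and 1 rose. SUP35 (0.11, adjusted p = 0.252) and URE2 (-0.02, adjusted p = 0.897) did not pass, and the fall of RNQ1 by 0.29 was lost without either deletion library.

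Genes with a predicted hairpin in the coding sequence were then set beside the rest. Of 6009 coding sequences searched, 419 tested genes carried at least 1 hairpin. Of these carriers 20.3% were called higher and 16.7% lower in the vts1 deletion, against 11.7% and 15.4% of the 5319 tested genes without one. Medians were close to each other, 0.01 among carriers and -0.005 among the others. Against the inductants they were -0.011 among carriers and 0.018 among the others. Carriers were longer, with a median coding length of 1857 bases against 1200, and a control hairpin with the loop GGNC gave 14.6% higher and 14.0% lower among 349 carriers. With a stem of only 4 pairs, 16.4% of 1193 carriers were called higher, and with G-U pairs allowed 14.2% of 1912 carriers.

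Genes were also divided into 4 groups of like number by coding length. In each of them the share called higher was larger among carriers than among the others. Among the longest genes it was 19.4% of 201 carriers and 11.7% of 1233 others, with 11.7% of 162 control carriers. Among the shortest it was 18.9% of 37 carriers and 9.95% of 1407 others, but 24.1% of only 29 control carriers. These shares are a description, since genes are not replicates of the deletion, and a hairpin predicted from sequence is not a measured binding site. Carriers called higher among the longest genes include the near-identical Y′ helicase genes YRF1-1, YRF1-3, YRF1-5 and YRF1-7, which count as few independent measurements. Most carriers were not called, and many genes with large rises, HSP12, YGR079W, TKL2 and YOX1 among them, carried no hairpin by this definition. Genes that fell also carried one, among them VTS1 itself, GSY1, HXT1, HAP4 and FAS2. Untranslated regions were not searched.

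**Figure D4:**
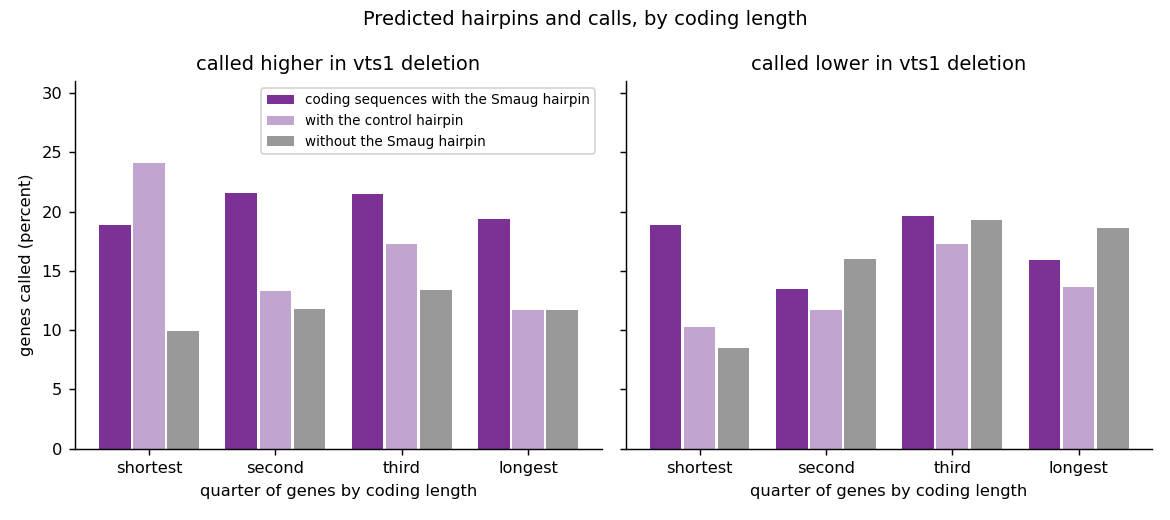
Percent of genes called higher (left) and lower (right) in the vts1 deletion, within 4 groups of genes by coding length (x axis), for coding sequences with the Smaug hairpin, with the control hairpin and without the Smaug hairpin. Among the longest genes 19.4% of carriers were called higher, against 11.7% of both other kinds. Among the shortest genes 18.9% of carriers were called higher, against 24.1% of control carriers.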

How the data were processed

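The RNA-seq libraries were quantified by the authors with kallisto on build R64 (submitters' processing notes); its version and the strand setting were not stated. The deposited tables give, per the file headers, coding length, an expected count that need not be whole, and TPM for 6713 reading frames in each library. TPM, scaled by the authors for length and depth, was used in an alternative and levels are otherwise CPM. Lengths were multiples of 3 in 99.97% of rows, so reads from UTRs were not counted. Near-identical copies share reads, and overlapping or antisense frames cannot be told apart.

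Estimated counts as deposited were rounded and fitted in edgeR 4.0.16 (R 4.3.3): TMM factors of 1.09 and 1.093 in the vts1 deletion and 0.9742 and 0.9884 in naive, filterByExpr by group, and the robust two-sided quasi-likelihood test with 1 mean per group over all 8 libraries, leaving 4 residual degrees of freedom (common biological variation 0.0956). P-values were adjusted by Benjamini-Hochberg over the 6230 genes tested, with calls at 0.05. Fold changes are the deletion over naive, with standard errors of the fit. Intervals and count limits cover counting error only. Symbols, coordinates and sequences came from the RefSeq annotation of R64, which matched 6026 of 6713 rows by systematic name. The fit and the hairpin search were tested on simulated data.

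The comparison and the 57 gene lists were chosen with earlier results of these data known, so no list is independent support. Genes named were VTS1, its neighbours and YIR016W; the 15 largest rises and 15 largest falls among called genes with groups that did not overlap, a mean of at least 10 CPM and a call kept in each of the 8 fits without 1 library; up to 4 called members of each list with the largest changes, and members whose role the text needed; and the 5 smallest p-values in each direction. Alternatives were RLE and upper-quartile scaling, DESeq2 1.42.0, limma 3.58.1 on log2(TPM + 1) and log2(TPM + 0.1), no filter, a filter of 10 CPM, only the 4 libraries compared, a replicate block, and leaving out each library.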

Additional observations from a re-analysis of the deposited data

How the results depend on the processing

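The count of 1637 genes called against naive was 1577 with DESeq2, 1633 with RLE and 1599 with upper-quartile scaling, 1618 without a filter, 1589 at 10 CPM or more, 1450 and 1435 with limma on TPM with pseudocounts of 1 and 0.1, and 1207 with only the 4 libraries compared, where 2 residual degrees of freedom remained. A minimum change of 1.5-fold left 523. Leaving out 1 library gave 680 to 1819 genes against naive, lowest without either deletion library, which leaves a single deletion library assumed to vary like the other groups. Against both inductants, leaving out 1 library gave 1115 to 2768. VTS1 stood at 0 to 0.471% of naive with 1 library left out, the 0 coming from deletion replicate 1 alone. HAP5, which was not called, ranged from -0.111 to 0.152 with 1 library left out, turning to -0.111 without vts1 deletion replicate 2 and to -0.03 without naive replicate 2. The median of hairpin carriers was -0.002 with a stem of 4 pairs and -0.011 with G-U pairs allowed, within the spread of 0.0396 between pairs of libraries. Of the 205 genes named by the rule, 204 are called, and 46 and 42 of them lost their call without vts1 deletion replicates 1 and 2, 12 and 16 without naive replicates 1 and 2, and 17 with limma on TPM, with the direction kept. Same-numbered libraries of the deletion and naive groups did not deviate together (correlation 0.072, range over groups -0.113 to 0.112). No shared effect of the replicate number was seen, but this cannot show whether same-numbered cultures were handled as pairs. With the replicate block 1743 genes were called, 769 higher and 974 lower. The cause was not tested.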
